A study of Mus musculus with 11 samples.

Results

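The genes described here encode the respiratory chain and the ATP synthase of mitochondria. They were chosen by symbol from a table of 37991 genes: symbols of the mitochondrial genome starting with mt-Nd, mt-Co, mt-Cytb or mt-Atp, and the nuclear symbols Nduf (a, b, c, s or v and a number), Sdha to Sdhd, Uqcr, Cyc1, Cox4 to Cox8 and Atp5. This gave 99 genes, of which 86 lie in the nuclear genome and 13 in the mitochondrial genome, and 92 of them (80 nuclear and 12 mitochondrial) reached 1 CPM (read counts scaled to a common library total) in at least 2 libraries and were tested.

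The respiratory chain passes electrons from NADH through complex I, or from succinate through complex II, to complex III, then by cytochrome c to complex IV, where oxygen is reduced. Complexes I, III and IV pump protons, and complex V, the ATP synthase, uses the returning protons to make ATP. Complexes I, III, IV and V are built from proteins of both genomes, so their assembly draws on nuclear messages made into protein in the cytosol and on mitochondrial messages made into protein inside the organelle; complex II is encoded in the nucleus alone. Neural stem cells are known to rely strongly on glycolysis, and oxidative metabolism is known to gain weight as they differentiate.

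RNA was measured in 11 libraries from cultured neural stem cells from the frontal cortex of C57BL/6J embryos at E14.5. The NSC group (3 libraries) was taken at day 0 from cells expanded in NeuroCult proliferation medium. The other 3 groups were taken after 4 days in a differentiation medium, each with GlutaMAX-1: Astrocyte (DMEM with 1% N-2 and 1% fetal bovine serum; 3 libraries), Neuron (Neurobasal with 2% B-27; 3 libraries) and Oligodendrocyte (Neurobasal with 2% B-27 and T3, a thyroid hormone, at 30 ng/mL; 2 libraries). No culture stayed in proliferation medium to day 4, so the effects of time and of medium against NSC cannot be told apart, whereas Oligodendrocyte and Neuron shared the day and, by the protocol, differed in T3.

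The group names stand for the medium. Summed markers of mature oligodendrocytes were 2640 to 3020 CPM in Oligodendrocyte and 2720 to 2900 CPM in Neuron. Astrocyte markers were 15700 to 17500 CPM in Astrocyte, 11800 to 13000 CPM in Neuron and 5490 to 6260 CPM in Oligodendrocyte. The sum hides that single markers differed in direction. By the test described below, 3 of these 10 were higher and 6 lower in Astrocyte than in Neuron (40.3% and 22.0% of all genes). Neuron markers reached 264 CPM at most in Neuron, and the libraries of that group overlapped those of Astrocyte. Cell cycle markers fell from 2770 to 2820 CPM in NSC to 117 to 172 CPM at day 4, and microglia, erythroid and muscle markers stayed at or under 3.65 CPM. Mesenchymal and mural markers were 11.8 to 15.4 CPM in NSC, 83.6 to 93.7 CPM in Astrocyte, 39.7 to 46.3 CPM in Neuron and 20.6 to 20.8 CPM in Oligodendrocyte, and endothelial markers reached 7.37 CPM, in Astrocyte. Progenitor markers went from 4010 to 4070 CPM in NSC to 3360 to 3730 CPM in Astrocyte, 1730 to 2100 CPM in Neuron and 2290 to 2340 CPM in Oligodendrocyte. Of these 8, 4 were higher and 4 lower against NSC in Astrocyte and again in Neuron, and 1 higher and 5 lower in Oligodendrocyte. Oligodendrocyte precursor markers were 1820 to 1950 CPM in NSC, 728 to 817 CPM in Astrocyte, 1660 to 2230 CPM in Neuron and 1360 to 1490 CPM in Oligodendrocyte. Of these 8, 4 were higher and 4 lower against NSC in Astrocyte, 5 and 3 in Neuron, and 4 and 4 in Oligodendrocyte. Against NSC, 43.5% to 48.1% of all genes were higher and 32.2% to 39.6% lower. Markers of several cell types were thus present in each day 4 group, and their part in the results was not tested. In such bulk samples fewer cells of a type and less RNA per cell cannot be told apart. Libraries held 49.3 M to 66.2 M reads as estimated from the smallest step of their values, in which 1 read was worth 0.01511 to 0.02029 CPM. How reads shared between a gene and a processed copy, or with an overlapping gene, were counted is not stated.

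The promoters printed here show the kind of sequence from which nuclear respiratory genes are read. They are RefSeq sequences of build GRCm38.p6, from 250 bases before to 50 bases after the gene's start, 5′ to 3′ on the gene's strand. The first 4 belong to the genes with the largest rise from Neuron to Oligodendrocyte among promoters that hold a searched motif, and the last to the gene that fell most. A motif was required of the first 4 and not of the last, so a difference in motifs between them was set by this choice. Capitals mark a match to the binding motif of NRF1 (nuclear respiratory factor 1; GCGCA, any base, then GCGC), of ETS proteins such as GABP (CCGGAAG), of YY1 (AAGATGGCG) or of the oestrogen-related receptors (ERR; TNAAGGTCA), on either strand.
Atp5g3, chr2:73911277-73911576, minus strand: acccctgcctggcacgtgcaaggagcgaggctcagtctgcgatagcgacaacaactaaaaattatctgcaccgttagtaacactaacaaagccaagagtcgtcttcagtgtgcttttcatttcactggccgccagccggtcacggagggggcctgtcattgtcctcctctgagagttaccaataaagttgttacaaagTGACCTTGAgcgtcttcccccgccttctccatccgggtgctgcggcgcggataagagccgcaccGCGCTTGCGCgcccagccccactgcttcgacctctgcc
Ndufa11, chr17:56717512-56717811, plus strand: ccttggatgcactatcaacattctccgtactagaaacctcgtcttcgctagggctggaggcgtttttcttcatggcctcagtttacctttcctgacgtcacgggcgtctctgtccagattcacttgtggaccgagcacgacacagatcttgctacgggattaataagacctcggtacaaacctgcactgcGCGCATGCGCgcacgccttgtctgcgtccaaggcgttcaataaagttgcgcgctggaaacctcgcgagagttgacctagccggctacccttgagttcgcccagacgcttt
Uqcrc1, chr9:108936398-108936697, plus strand: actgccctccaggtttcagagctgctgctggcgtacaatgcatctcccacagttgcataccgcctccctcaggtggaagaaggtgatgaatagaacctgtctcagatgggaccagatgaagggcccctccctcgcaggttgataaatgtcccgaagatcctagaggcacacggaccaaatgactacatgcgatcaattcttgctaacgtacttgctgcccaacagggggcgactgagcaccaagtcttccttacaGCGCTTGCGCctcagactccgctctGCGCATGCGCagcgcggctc
Ndufc1, chr3:51408906-51409205, minus strand: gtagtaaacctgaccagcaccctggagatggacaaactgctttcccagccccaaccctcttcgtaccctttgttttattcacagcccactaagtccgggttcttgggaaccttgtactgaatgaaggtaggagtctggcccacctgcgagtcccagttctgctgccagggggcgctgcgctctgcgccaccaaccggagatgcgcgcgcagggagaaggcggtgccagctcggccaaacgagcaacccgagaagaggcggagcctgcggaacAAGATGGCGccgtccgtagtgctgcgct
Ndufc2, chr7:97399753-97400052, plus strand: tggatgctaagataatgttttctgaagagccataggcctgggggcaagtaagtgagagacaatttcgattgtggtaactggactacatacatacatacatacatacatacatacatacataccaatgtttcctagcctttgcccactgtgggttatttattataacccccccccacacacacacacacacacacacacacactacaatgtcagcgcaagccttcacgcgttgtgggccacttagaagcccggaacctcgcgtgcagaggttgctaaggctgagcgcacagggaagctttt

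Atp5g3 held an NRF1 match at bases 263 to 272 and an ERR match at bases 199 to 207, counted from the first printed base. Ndufa11 held 1 NRF1 match at bases 191 to 200 and Uqcrc1 held 2, at bases 256 to 265 and 281 to 290. Ndufc1 held a YY1 match at bases 273 to 281, and none of the 4 letter strings occurred in the window of Ndufc2. None occurred either for Cox6b2 (a log2 rise of 2.59) and Atp5g1 (1.68), which rose more than any gene printed. Atp5b (1.34) and Cox5a (1.26) held none as well. Of the 80 nuclear genes tested, 64 had a promoter in the table. The NRF1 string stood in 16 of these (25.0%), against 10.6% of the promoters of all genes tested and 4.82% of all promoters. For ETS the shares were 23.4% against 17.5% and 9.14%, for YY1 9.38% against 3.11% and 1.48%, and for ERR 4.69% (3 promoters) against 0.683% and 1.24%. At least 1 of the strings stood in 32 of the 64, against 28.7% and 15.2%, and no sites of different motifs overlapped. A match is a string of letters in the window and not a shown binding site.

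The mitochondrial genes lie close together. mt-Atp8 and mt-Atp6, which encode subunits of the ATP synthase, overlap by 43 bases on the same strand, the sequence of which (from GENCODE vM21 transcripts, at the coordinates of the deposited table) is shown because it limits how reads can be assigned; capitals mark the start codon of mt-Atp6 and the stop codon of mt-Atp8.
mt-Atp8 and mt-Atp6, chrM:7927-7969, plus strand: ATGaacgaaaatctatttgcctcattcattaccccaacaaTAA

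mt-Nd4l and mt-Nd4 share 7 bases, and mt-Nd5 and mt-Nd6 share 14 bases on opposite strands. Near-identical copies in the nuclear genome were counted as the share of 50-base windows of a gene that recur in a GENCODE vM21 transcript of a nuclear gene. That share was 98.0% for mt-Nd3, 98.8% for mt-Nd4l, 99.5% for mt-Atp6, 99.9% for mt-Co3 and 100% for mt-Co2. It was 62.2% for mt-Nd4, 51.1% for mt-Co1, 8.19% for mt-Nd2 and 7.61% for mt-Nd5, and 0% for mt-Nd1, mt-Nd6, mt-Atp8 and mt-Cytb. The levels of the first 5 genes are therefore uncertain, and those of mt-Nd4 and mt-Co1 are so in part. Among the nuclear copies listed in the table, the highest level in any library was 7.79 CPM, for a copy of mt-Co1. The copies of mt-Atp6, mt-Co3, mt-Nd3 and mt-Nd4 were not listed, so their levels are not known. mt-Nd4l was listed at 0 to 0.03 CPM in the 11 libraries, at or under what 3 reads are worth, and was not tested.

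The nuclear genes as a group were lowest in Neuron and highest in Oligodendrocyte, whereas the sum of the mitochondrial genes was lowest in NSC. That did not hold for each mitochondrial gene. The lowest group mean was in Neuron for mt-Nd1 and mt-Nd2 and in Astrocyte for mt-Nd3. For mt-Nd6, mt-Atp6 and mt-Atp8 it was in Oligodendrocyte. mt-Co1 alone made up 29.7% of the sum in NSC and 40.4% in Neuron. The summed level of the 86 nuclear genes was 9378, 9003 and 10340 CPM in the NSC libraries, 8356, 8883 and 9618 CPM in Astrocyte, 6042, 7596 and 6332 CPM in Neuron, and 10990 and 11020 CPM in Oligodendrocyte. Every Neuron library lay under, and both Oligodendrocyte libraries lay over, all libraries of the other groups. The 13 mitochondrial genes summed to 45050, 44050 and 45830 CPM in NSC, 65380, 78370 and 78560 CPM in Astrocyte, 68240, 87780 and 67340 CPM in Neuron, and 60520 and 65950 CPM in Oligodendrocyte. NSC lay under all day 4 libraries. Astrocyte overlapped both Neuron and Oligodendrocyte, and the Oligodendrocyte libraries lay under those of Neuron.

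The ratio of mitochondrial to nuclear sums, which does not depend on a library's scaling factor, ordered the groups without overlap. NSC had 4.71 ± 0.244 (SD, n = 3), Oligodendrocyte 5.747 ± 0.336 (SD, n = 2), Astrocyte 8.271 ± 0.507 (SD, n = 3) and Neuron 11.16 ± 0.475 (SD, n = 3). The lowest Neuron library was at 10.63 and the highest Astrocyte library at 8.822, and the Oligodendrocyte libraries were at 5.509 and 5.984 against a highest NSC library of 4.893. Within complexes the ratio was highest in Neuron for complexes III (12.18 ± 0.711, SD, n = 3), IV (38.89 ± 0.446, SD, n = 3) and V (0.3776 ± 0.0183, SD, n = 3). In complexes III and V the Oligodendrocyte libraries lay under those of NSC (5.868 to 6.157 against 6.177 to 7.436, and 0.1341 to 0.1504 against 0.1792 to 0.1932), the reverse of the order of the total ratio. For complex I the Neuron libraries (10.23 to 11.71) overlapped those of Astrocyte (9.787 to 11.42). Being ratios over chosen genes, these carry no p-value. The gap between Neuron and Astrocyte in the total ratio held for sums. As a difference of medians over the genes, given in the closing section, these groups came together.

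**Figure D1:**
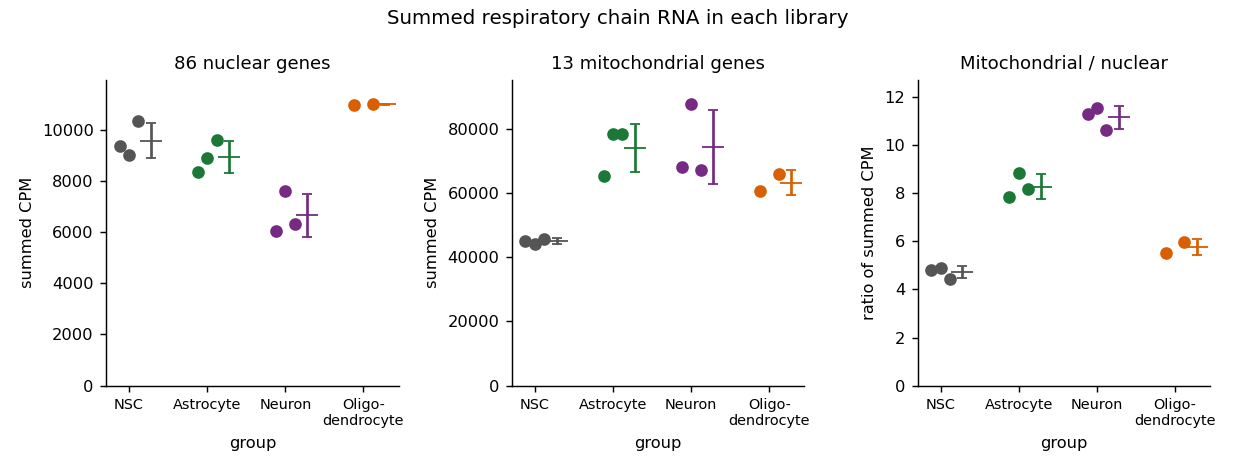
Summed CPM of the 86 nuclear genes (left) and the 13 mitochondrial genes (middle), and the ratio of the sums (right), for each library (points) by group, with the group mean and SD (bars). The nuclear sum is lowest in Neuron (6042 to 7596 CPM), and the ratio is highest there (10.63 to 11.56).

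Per kilobase of exon the median of the mitochondrial messages stood far above that of the nuclear ones. Among the tested genes mt-Nd6 and mt-Atp8 were exceptions. In NSC they were at 81.7 and 201 CPM per kilobase, under the highest nuclear genes. Exon length was the union of all exons annotated to a gene in GENCODE vM21, such as 4912 bases for Atp5g1. For nuclear genes it can exceed the length of the message, so their values can be too low. The median of the 12 tested mitochondrial genes was 3060 CPM per kilobase in NSC and 4550, 3030 and 4480 in Astrocyte, Neuron and Oligodendrocyte. That of the 80 nuclear genes was 49.6 in NSC and 49.0, 35.3 and 64.3 in the same order. mt-Co1, the catalytic core of complex IV, led in all groups, from 8660 ± 87.1 (SD, n = 3) in NSC to 19500 ± 3120 CPM per kilobase (SD, n = 3) in Neuron. Among nuclear genes in NSC, Atp5a1 (316 ± 14.4 CPM per kilobase, SD, n = 3) and Atp5b (295 ± 14.2, SD, n = 3), the catalytic-head subunits of the ATP synthase, stood highest.

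The libraries of a group differed in a way that touches most nuclear members. NSC replicate 3 was the highest of its group for 80 of the 80 genes, Astrocyte replicate 3 for 76 and Neuron replicate 2 for 78, against 53.4%, 35.9% and 35.6% of all genes tested. Among 263 genes outside the chain with under 1000 bases of exon, these shares were 65.8%, 61.2% and 73.0%, and the median exon length was 1740 bases for the nuclear members against 4610 bases for the other genes. Only 18 of the 80 nuclear members had under 1000 bases, so the 263 genes were not matched to the members in length. The median log2 fold change of the 263 genes was 0.12 in Neuron against NSC and 0.01 in Oligodendrocyte against Neuron. A part of exon length in the results was not tested. What sets the 3 libraries apart was not tested. Counts are therefore also given without these 3 libraries, a choice made after seeing the data. The 3 were picked because the members were highest in them, and no Oligodendrocyte library was left out. By itself this choice raises Oligodendrocyte against the other groups and narrows the spread, so these counts support no result.

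Against NSC, most nuclear genes fell in Neuron and not in the other media. Of the 80 nuclear genes, 55 fell and 9 rose in the Neuron medium (limma, Benjamini-Hochberg adjusted p under 0.05), where 39.6% of all 13342 genes tested were lower and 43.5% higher (83.1% in either direction). Without the 3 libraries 63 fell and 9 rose. The median log2 fold change was -0.38, against 0.06 over all genes. By complex, 22 of 35 fell in I, 4 of 4 in II, 7 of 9 in III, 9 of 13 in IV and 13 of 15 in V, while the 4 members that are not subunits rose.

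In complex III the largest fall was that of Cyc1 (chr15:76173953-76176364, build NCBIM37), the cytochrome c1 that hands electrons to cytochrome c. Its level was 126, 121 and 138 CPM in NSC and 45.9, 47.9 and 46.3 CPM in Neuron, with no overlap. The difference was -1.44 ± 0.062 on the log2 scale (SE; limma adjusted p = 6.18e-11). Astrocyte libraries held 89.9, 91.5 and 98.6 CPM and Oligodendrocyte libraries 137 and 135 CPM. Cyc1 was lower in Astrocyte than in NSC (-0.46 ± 0.062, limma adjusted p = 1.04e-05), and for Oligodendrocyte against NSC the log2 difference was 0.08 ± 0.069 (limma adjusted p = 0.27). Uqcrh, the hinge protein beside cytochrome c1, did not share this order: it stood at 142, 129 and 163 CPM in NSC and 141, 209 and 153 CPM in Neuron, with overlapping libraries. The ratio of Cyc1 to Uqcrh was 0.891 ± 0.045 (SD, n = 3) in NSC and 0.286 ± 0.0502 (SD, n = 3) in Neuron.

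The ATP synthase gave the next largest falls. Atp5b, the catalytic beta subunit, went from 1228, 1206 and 1320 CPM in NSC to 486, 531 and 512 CPM in Neuron, with no overlap, at a log2 difference of -1.29 ± 0.067 (SE; limma adjusted p = 4.44e-10). The genes Atp5g1, Atp5g2 and Atp5g3 encode the same c subunit of the rotor ring with different import signals, and they parted. Atp5g3 (chr2:73746504-73749383, build NCBIM37) went from 265, 248 and 284 CPM in NSC to 93.1, 114 and 102 CPM in Neuron (-1.36 ± 0.078, limma adjusted p = 1.38e-09). Atp5g1 (chr11:95930166-95936984) went from 46.6, 45.3 and 49.7 CPM to 20.1, 23.3 and 21.2 CPM (-1.10 ± 0.07, limma adjusted p = 3.86e-09). Atp5g2 moved less, from 127, 120 and 150 CPM to 99.0, 124 and 101 CPM with overlapping libraries (-0.29 ± 0.097, limma adjusted p = 0.0127). For the ratio of Atp5g3 to Atp5g2, NSC had 2.01 ± 0.106 (SD, n = 3), Astrocyte 1.92 ± 0.0329 (SD, n = 3), Neuron 0.957 ± 0.0529 (SD, n = 3) and Oligodendrocyte 2.50 ± 0.0376 (SD, n = 2).

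In complex IV the largest fall was that of Cox5a, an accessory subunit on the matrix side. Its libraries stood at 138, 136 and 158 CPM in NSC and 55.1, 65.9 and 58.3 CPM in Neuron (-1.26 ± 0.08, limma adjusted p = 4.12e-09). Cox4i1, the general isoform of subunit 4, rose instead, from 233, 226 and 249 CPM to 278, 405 and 289 CPM (0.44 ± 0.125, limma adjusted p = 0.00524). In complex I, 6 of 7 core subunits fell, among them Ndufs8 and Ndufv2, which carry iron-sulphur clusters, both at -0.93 on the log2 scale; the limma adjusted p was 8.43e-07 for Ndufs8 and 1.02e-06 for Ndufv2, while Ndufs7 stood at -0.20 (limma adjusted p = 0.0528). Ndufb6, an accessory subunit of the membrane arm, fell furthest in complex I (-1.07 ± 0.118, limma adjusted p = 1.35e-06). The 4 complex I genes that rose were Ndufa3, Ndufa6, Ndufa7 and Ndufv3, by 0.35 to 0.75 on the log2 scale. All 4 subunits of complex II, the succinate dehydrogenase of the citric acid cycle, fell: Sdha by 0.44, Sdhb by 0.63, Sdhc by 0.22 and Sdhd by 0.90.

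The members that rose in Neuron and are not subunits do other work. Cox7a2l was at 73.3, 69.6 and 75.7 CPM in NSC and 108, 138 and 115 CPM in Neuron, with no overlap (0.71 ± 0.084, limma adjusted p = 2.69e-06). It stood at 67.4 to 76.4 CPM in Astrocyte and 74.1 to 75.8 CPM in Oligodendrocyte. Cox4nb belongs to a membrane protein complex of the endoplasmic reticulum and carries the prefix by its genomic place beside Cox4i1. It rose from 54.8, 54.0 and 58.0 CPM in NSC to 140, 139 and 152 CPM in Neuron (1.35 ± 0.06, limma adjusted p = 8.06e-11). Atp5sl, a relative of Atp5s, rose from 3.90, 3.89 and 4.73 CPM to 11.7, 12.3 and 11.6 CPM (1.32 ± 0.08, limma adjusted p = 2.46e-09). Without the members that are not subunits, 5 genes rose and 55 fell.

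Oligodendrocyte against Neuron, which differed in T3 by the protocol, moved the nuclear genes the other way. Of the 80, 69 were higher and 3 lower in Oligodendrocyte, where 43.9% of all genes were higher and 23.6% lower (67.5% in either direction). Without the 3 libraries 75 were higher and 3 lower, and the median log2 fold change was 0.80 against 0.15 over all genes. Complex I gave 30 of 35, II 4 of 4, III 8 of 9, IV 11 of 13 and V 14 of 15 genes higher. The highest of the group means was that of Oligodendrocyte for 64 of the 80 genes (26.2% of all genes), and the lowest was that of Neuron for 64 of the 80 (28.6% of all genes). This comparison shares its Neuron libraries with the one before, so the values are given side by side and do not support each other.

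Among the subunits found in most tissues, Atp5g1 was the one with the largest difference. It stood at 69.6 and 72.0 CPM in Oligodendrocyte, over the 20.1 to 23.3 CPM of Neuron and the 45.3 to 49.7 CPM of NSC (1.68 ± 0.078 against Neuron, limma adjusted p = 1.03e-09). Cyc1 followed at 1.52 ± 0.069 (limma adjusted p = 8.14e-10), then Atp5g3 at 1.45 ± 0.088 (limma adjusted p = 1.16e-08). Uqcrq, a small complex III subunit, was at 34.4, 38.9 and 34.5 CPM in Neuron and 92.7 and 95.7 CPM in Oligodendrocyte (1.37 ± 0.093, limma adjusted p = 3.45e-08). The core subunit Ndufs1, which carries iron-sulphur clusters, was at 94.6, 106 and 97.6 CPM in Neuron and 201 and 188 CPM in Oligodendrocyte (0.96 ± 0.064, limma adjusted p = 3.02e-08). All 7 core subunits of complex I were higher, by 0.51 to 1.04 on the log2 scale.

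Ndufc2 (chr7:104548513-104556312, build NCBIM37), a complex I subunit of the membrane arm, went against the rest. It was at 144, 212 and 152 CPM in Neuron, 173, 156 and 191 CPM in NSC, 145, 158 and 179 CPM in Astrocyte and 95.6 and 96.7 CPM in Oligodendrocyte. Both Oligodendrocyte libraries lay under all others, at -0.79 ± 0.143 against Neuron (limma adjusted p = 0.000288) and -0.84 ± 0.143 against NSC (limma adjusted p = 0.000105). Its partner Ndufc1 was higher in Oligodendrocyte than in Neuron, at 48.4 and 52.3 CPM against 19.3, 25.5 and 21.3 CPM (1.16 ± 0.104, limma adjusted p = 4.8e-07). Cox7a2l and Cox4nb were the other members that were lower, at -0.67 ± 0.093 and -0.59 ± 0.067 (limma adjusted p = 3.08e-05 and 4.56e-06).

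**Figure D2:**
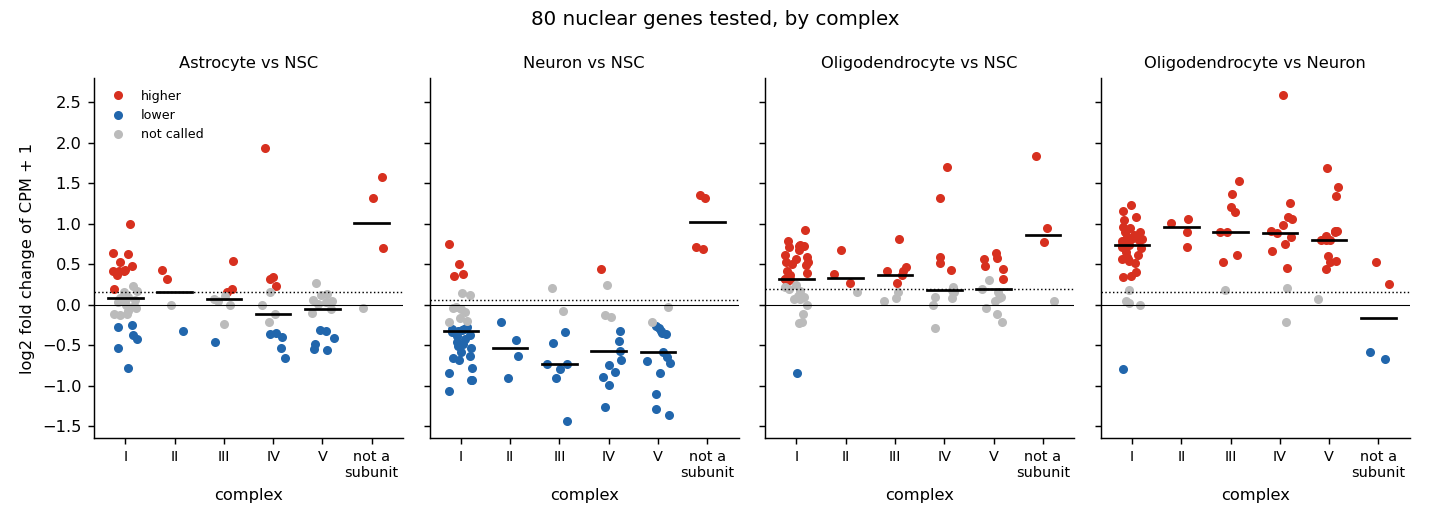
Log2 fold change of CPM + 1 of the 80 nuclear genes tested (points) by complex in 4 comparisons; red and blue points passed the test as higher or lower, grey points did not, black bars are medians by complex and the dotted line is the median over all genes. In Neuron against NSC 55 points are blue; in Oligodendrocyte against Neuron 69 are red.

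Oligodendrocyte against NSC gave 45 nuclear genes higher and 1 lower, where 48.1% of all genes were higher and 32.2% lower (80.2% in either direction). The share of genes higher was thus near the background, and the share lower was under it. Without the 3 libraries 64 were higher and 3 lower. With libraries scaled by their median ratio, which takes the median over all genes from 0.19 to near 0, 26 were higher and 7 lower. Ndufa11, an accessory subunit of complex I, rose by 0.92 ± 0.099 (limma adjusted p = 1.26e-06), from 23.2, 22.6 and 27.2 CPM to 47.0 and 46.4 CPM. The catalytic-head genes stood near their NSC levels: Atp5b was at 1289 and 1292 CPM (0.05 ± 0.075, limma adjusted p = 0.581) and Atp5a1 at 956 and 966 CPM (-0.04 ± 0.08, limma adjusted p = 0.636).

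Astrocyte against NSC split the nuclear genes: 23 were higher and 19 lower, where 48.0% of all genes were higher and 35.6% lower. The share called (42 of 80) was under the 83.6% of all genes called in either direction. Scaling by the median ratio turned the split to 16 higher and 26 lower; without the 3 libraries it was 28 and 22. Complex I had 11 higher and 6 lower genes and complex V none higher and 6 lower, among them Atp5b at 813, 854 and 875 CPM (-0.56 ± 0.067, limma adjusted p = 2.99e-06). Ndufv3, a small accessory subunit, rose from 29.3, 28.8 and 32.8 CPM to 58.7, 60.7 and 65.3 CPM (1.00 ± 0.084, limma adjusted p = 7.57e-08), and Ndufb6 fell from 49.0, 44.9 and 52.0 CPM to 23.8, 27.3 and 33.1 CPM (-0.78 ± 0.118, limma adjusted p = 2.92e-05). In complex II, Sdha and Sdhc were higher by 0.31 and 0.43 and Sdhd was lower (-0.32).

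Astrocyte against Neuron gave 62 nuclear genes higher and 1 lower (Cox7a2l, -0.75 ± 0.084), where 40.3% of all genes were higher and 22.0% lower (62.2% in either direction); without the 3 libraries the counts were 70 and 2. The complex III subunits Uqcrq, Cyc1 and Uqcrc1 differed by 1.00, 0.98 and 0.98 on the log2 scale. Other complexes held differences as large: Cox6b2 of complex IV was at 1.21, Atp5g1 of complex V at 1.00 and the highest core subunit of complex I at 0.99. Oligodendrocyte against Astrocyte gave 45 higher and 3 lower, where 28.7% of all genes were higher and 23.5% lower (52.2% in either direction). That count depended on single libraries: the total of 48 went to 23 without Oligodendrocyte replicate 2, to 31 without Astrocyte replicate 1 and to 73 without the 3 libraries. Cox6b2 differed most here (1.38 ± 0.107, limma adjusted p = 2.32e-07).

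Several subunits of complex IV have isoforms that other tissues are known to use. Cox6b2 (chr7:4703396-4704696, build NCBIM37), known from testis, was at 7.87, 7.86 and 9.60 CPM in NSC, 10.47, 11.8 and 10.0 CPM in Astrocyte, 3.77, 4.32 and 4.15 CPM in Neuron and 31.5 and 27.6 CPM in Oligodendrocyte. No groups overlapped, and it was the member with the largest difference of all, 2.59 ± 0.107 between Oligodendrocyte and Neuron (limma adjusted p = 3.85e-10). Its general partner Cox6b1 stayed at 122 to 160 CPM in all groups, so that the ratio of Cox6b2 to Cox6b1 in Neuron was 0.0306 ± 0.00309 (SD, n = 3), against 0.191 ± 0.0259 (SD, n = 2) for the Oligodendrocyte libraries.

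Cox7a1 (chr7:30969190-30971047), the heart and muscle isoform of subunit 7a, was at 0.39, 0.30 and 0.45 CPM in NSC, 3.58, 3.82 and 5.59 CPM in Astrocyte, 0.79, 0.69 and 0.44 CPM in Neuron and 2.99 and 1.92 CPM in Oligodendrocyte. It passed the filter through Astrocyte and Oligodendrocyte, so a difference for it had to appear; on the log2 of CPM + 1, which understates changes of low genes, it was 1.93 ± 0.149 for Astrocyte against NSC. The muscle marker list summed to 2.64 to 3.15 CPM in Astrocyte and 0.19 to 0.39 CPM in NSC, and its part in the rise was not tested. The muscle isoform Cox8b stayed under the filter, at 0.02 to 0.03 CPM in NSC, 0.73, 0.92 and 1.08 CPM in Astrocyte, 0.22 to 0.24 CPM in Neuron and 0.14 and 0.19 CPM in Oligodendrocyte. Cox4i2, Cox6a2, Cox7b2, Cox8c and Atp5l2 were at or under 0.38 CPM throughout and were not tested.

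**Figure D3:**
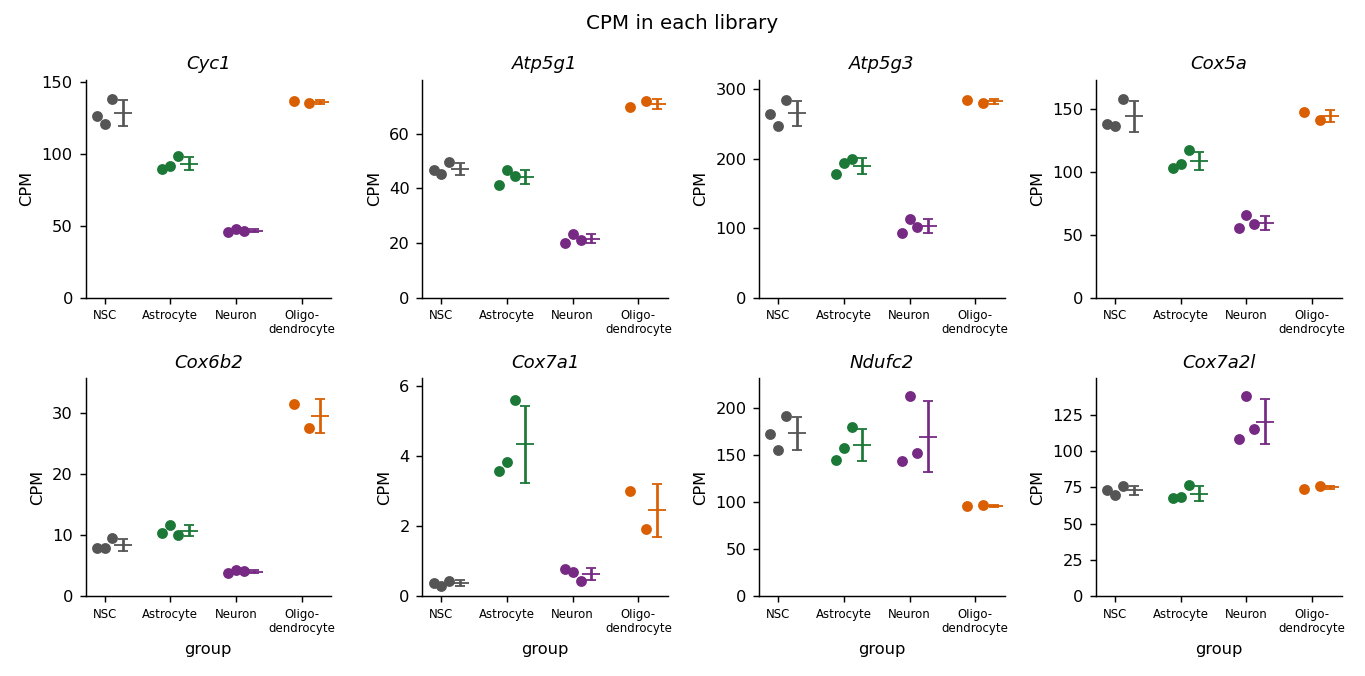
CPM of 8 nuclear genes in each library (points) by group, with the group mean and SD (bars). Cyc1, Atp5g1, Atp5g3 and Cox5a are lowest in Neuron; Cox6b2 is highest in Oligodendrocyte (31.5 and 27.6 CPM), Cox7a1 in Astrocyte, and Ndufc2 is lowest in Oligodendrocyte.

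The mitochondrial genes did not move as a unit. Of the 12 tested, 7 rose and 1 fell in Astrocyte against NSC, 6 rose and 2 fell in Neuron, and 5 rose and 2 fell in Oligodendrocyte. Of all genes, 48.0%, 43.5% and 48.1% were higher and 35.6%, 39.6% and 32.2% lower in the same order. The share of the 12 that rose was thus near the background, and the share that fell was under it. Without the 3 libraries the counts were 7 and 1, 5 and 3, and 5 and 3. They turned with the scaling: under quantile normalization they were 2 and 4, 3 and 3, and 3 and 3, and by median ratio the Oligodendrocyte count was 3 and 4. In the reported fit 66.7%, 66.7% and 58.3% of the 12 were called, under the 83.6%, 83.1% and 80.2% of all genes. mt-Nd5 and mt-Nd4, complex I subunits of the proton-pumping arm, rose most in Astrocyte and Oligodendrocyte; in Neuron mt-Nd5 rose most, followed by mt-Co1 (1.16) and mt-Nd4 (1.12). mt-Nd5 was at 1472, 1568 and 1653 CPM in NSC, 4548, 5146 and 4368 CPM in Astrocyte, 4400.2, 4343 and 4107 CPM in Neuron and 4789 and 4359 CPM in Oligodendrocyte. The log2 differences were 1.58 ± 0.096, 1.45 ± 0.096 and 1.55 ± 0.107 (limma adjusted p = 2.27e-09, 5.98e-09 and 1.2e-08). mt-Nd4 was at 3309 to 3445 CPM in NSC and 6781 to 9774 CPM at day 4, with differences of 1.38, 1.12 and 1.17.

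mt-Nd1, which lies first in the map and has no near-identical nuclear copy among the transcripts searched, did not rise. It was at 5441, 5357 and 5571 CPM in NSC, 4288, 5193 and 5331 CPM in Astrocyte, 3241, 3881 and 3186 CPM in Neuron and 4397 and 5011 CPM in Oligodendrocyte. It fell in Neuron (-0.67 ± 0.118, limma adjusted p = 0.000122), and the differences in Astrocyte and Oligodendrocyte were -0.15 and -0.22 without passing the test. Within a library, where scaling plays no part, mt-Nd5 over mt-Nd1 gave NSC 0.287 ± 0.0141 (SD, n = 3), Astrocyte 0.957 ± 0.124 (SD, n = 3), Neuron 1.26 ± 0.123 (SD, n = 3) and Oligodendrocyte 0.98 ± 0.155 (SD, n = 2). mt-Nd1 made up 12.1% of the 13 mitochondrial messages in NSC and 4.63% in Neuron, and mt-Co1 29.7% and 40.4%.

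Of the complex IV messages, mt-Co1 and mt-Co3 rose in the 3 day 4 groups, and mt-Co2 in Astrocyte and Neuron but not past the threshold in Oligodendrocyte (0.06). mt-Co1 was at 13461, 13439 and 13218 CPM in NSC, 22509, 26686 and 27105 CPM in Astrocyte, 27228, 35672 and 27400.4 CPM in Neuron and 19887 and 22716 CPM in Oligodendrocyte. The log2 differences were 0.92 ± 0.165, 1.16 ± 0.165 and 0.67 ± 0.184 (limma adjusted p = 0.000143, 1.74e-05 and 0.00445). mt-Co3 rose by 0.88, 1.00 and 0.65 on the log2 scale. mt-Nd2 (0.51), mt-Cytb (0.54) and mt-Co2 (0.39) rose in Astrocyte, mt-Nd2 (0.54) in Oligodendrocyte, and mt-Cytb (0.32) and mt-Co2 (0.54) in Neuron. Under quantile normalization the sign turned for mt-Nd2 and mt-Co2 in Astrocyte (-0.28 and -0.32) and for mt-Cytb and mt-Co2 in Neuron (-0.06 and -0.08), and mt-Co1 in Neuron was at 0.00. The call of mt-Co2 in Astrocyte was lost without NSC replicate 1 or 2 or Astrocyte replicate 2 or 3, and that of mt-Cytb in Neuron without any single NSC library, Astrocyte replicate 2 or Neuron replicate 2. mt-Nd3 was lower than in NSC in all 3 day 4 groups, going from 1237, 911 and 1356 CPM to 529 to 824 CPM in Astrocyte (-0.80 ± 0.2, limma adjusted p = 0.00221), 693 to 1137 CPM in Neuron and 665 and 752 CPM in Oligodendrocyte. The Neuron libraries overlapped those of NSC for mt-Nd3 (-0.48, limma adjusted p = 0.0403), and that call was lost without NSC replicate 1 or 3, Neuron replicate 1 or 3, Astrocyte replicate 2 or either Oligodendrocyte library. The Oligodendrocyte call of mt-Nd3 (-0.70) was lost without Oligodendrocyte replicate 1. mt-Atp8 was at 49.3, 35.2 and 38.3 CPM in NSC and 25.1 and 31.8 CPM in Oligodendrocyte (-0.50 ± 0.211, limma adjusted p = 0.0416), a call lost without NSC replicate 1 or 3, Neuron replicate 3 or Oligodendrocyte replicate 1. mt-Atp6 passed no test against NSC. mt-Nd6, the member read from the other strand, stood at 24.8 to 59.2 CPM over the 11 libraries, and its differences against NSC were 0.17, -0.10 and -0.11, none past the threshold.

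**Figure D4:**
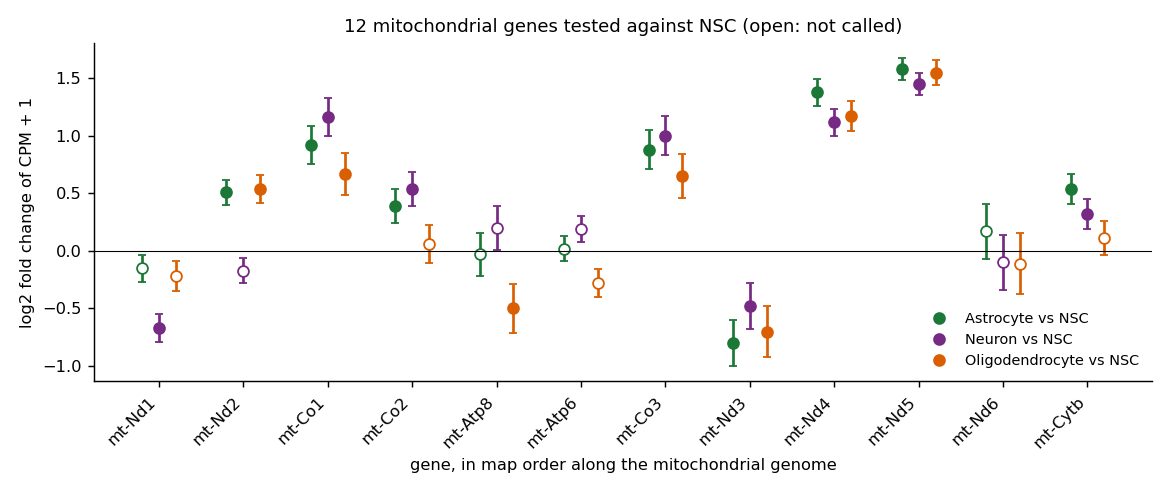
Log2 fold change of CPM + 1 against NSC (points, with SE bars) of the 12 mitochondrial genes tested, in map order, for the 3 day 4 groups; filled points passed the test and open points did not. mt-Nd5 lies highest in each group (1.45 to 1.58), with mt-Nd4 next except in Neuron, where mt-Co1 (1.16) lies above it (1.12), and mt-Nd3 lies under 0 in all 3 groups.

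Between the day 4 groups the mitochondrial counts were 2, 6 and 1 of 12, where 62.2%, 67.5% and 52.2% of all genes were called. Astrocyte against Neuron had 2 higher, mt-Nd1 (0.52 ± 0.118) and mt-Nd2 (0.68 ± 0.108), and none lower at the adjusted threshold; without Neuron replicate 2 the count was 5. Oligodendrocyte against Neuron had the same pair higher (0.46 and 0.71) and mt-Co1 (-0.49), mt-Co2 (-0.48), mt-Atp6 (-0.47) and mt-Atp8 (-0.71) lower, but without Oligodendrocyte replicate 1 the total went from 6 to 2. By median ratio this split was 1 higher and 4 lower, and under quantile normalization 3 and 2. mt-Cytb was the member lower in Oligodendrocyte than in Astrocyte (-0.42 ± 0.148, limma adjusted p = 0.0287), a call lost without Astrocyte replicate 2 or 3 or either Oligodendrocyte library. In Oligodendrocyte against Neuron 11 of 13 nuclear genes of complex IV and 14 of 15 of complex V were thus higher, while the 4 mitochondrial messages of those complexes that passed the test were lower.

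The mitochondrial ribosomal RNA genes, whose RNA poly(A) selection catches in part, were listed in the same table. mt-Rnr2 was at 1198, 1061 and 1035 CPM in NSC and 433 to 526 CPM in Astrocyte, 522 to 805 CPM in Neuron and 626 and 813 CPM in Oligodendrocyte. It was lower than in NSC in all 3 groups (-1.16, -0.86 and -0.62), while mt-Rnr1 was lower in Astrocyte (-0.61) and Oligodendrocyte (-0.72) and higher in Neuron (0.45).

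Genes that serve the chain were counted from lists by function. Cycs, the soluble cytochrome c that carries electrons from complex III to complex IV, was at 167, 166 and 192 CPM in NSC, 73.7, 74.2 and 87.6 CPM in Astrocyte, 30.6, 37.1 and 30.3 CPM in Neuron and 102 and 106 CPM in Oligodendrocyte. No groups overlapped, and the difference for Neuron was -2.39 ± 0.091 (limma adjusted p = 1.86e-11). Cytochrome c and its docking subunit Cyc1 were thus both lowest in Neuron. Of the 13 carriers and partners tested, 10 fell and 2 rose in Neuron against NSC (39.6% and 43.5% of all genes), and 10 were higher and 1 lower in Oligodendrocyte against Neuron (43.9% and 23.6% of all genes). Higd1a, a small protein bound to complex IV, was at 17.0 to 21.2 CPM in Neuron and 80.7 and 79.0 CPM in Oligodendrocyte (2.05 ± 0.099, limma adjusted p = 1.58e-09).

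Of 75 mitochondrial ribosomal protein genes, which build the machine that translates the mitochondrial messages, 66 fell and 1 rose in Neuron against NSC, where 39.6% of all genes were lower and 43.5% higher. In the other media 43 (Astrocyte) and 33 (Oligodendrocyte) fell and 10 rose in each, where 35.6% and 32.2% of all genes were lower and 48.0% and 48.1% higher. In Oligodendrocyte against Neuron 58 were higher and 1 lower (43.9% and 23.6% of all genes). The same shares of all genes stand beside the counts of the lists that follow. Of 29 assembly factors, 18 fell and 5 rose in Neuron, whereas 17 rose and 4 fell in Oligodendrocyte against NSC. Ndufaf4, which helps assemble complex I, fell by 1.77 in Neuron, and Cox15, which makes the heme A of complex IV, was at 20.9, 18.3 and 20.7 CPM in Neuron and 61.1 and 55.7 CPM in Oligodendrocyte. Of 18 proteins used as signs of mitochondrial content, 16 fell in Astrocyte, 16 in Neuron and 12 in Oligodendrocyte against NSC; Hspd1, the matrix chaperonin, fell by 1.57, 1.91 and 1.29. In Oligodendrocyte against NSC the content proteins thus counted 2 higher and 12 lower beside 45 higher and 1 lower for the nuclear chain genes, a difference between lists that was not tested.

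Of the 14 regulators of these genes tested, 3 were higher and 9 lower in Astrocyte against NSC, 4 and 9 in Neuron, and 4 and 8 in Oligodendrocyte, and 7 were higher and 5 lower in Oligodendrocyte against Neuron. Esrra, the oestrogen-related receptor alpha, was at 25.0, 24.4 and 25.5 CPM in NSC, 21.7, 21.7 and 19.8 CPM in Astrocyte, 15.7, 14.2 and 16.1 CPM in Neuron and 33.1 and 29.7 CPM in Oligodendrocyte. It was lowest in Neuron and highest in Oligodendrocyte, with no overlap. Its log2 difference was -0.67 ± 0.072 in Neuron against NSC and 0.99 ± 0.081 in Oligodendrocyte against Neuron (limma adjusted p = 9.99e-07 and 1.9e-07). Ppargc1a, the coactivator of respiratory genes, was at 33.3 to 36.3 CPM in NSC, 57.1 to 75.8 CPM in Astrocyte, 44.9 to 47.3 CPM in Neuron and 81.2 to 86.7 CPM in Oligodendrocyte, and it rose in all 3 media (0.91, 0.39 and 1.23). Nrf1, whose motif was searched above, fell in all 3 (-0.81, -0.72 and -0.90), and Gabpa rose by 0.19 in Neuron. Tfam, which packs and transcribes mitochondrial DNA, fell by 0.51, 0.40 and 0.58, and the mitochondrial RNA polymerase Polrmt fell by 0.31, 0.71 and 0.28. Of the 19 genes for expression and copying of mitochondrial DNA, 11, 12 and 8 fell and 6, 5 and 6 rose in Astrocyte, Neuron and Oligodendrocyte against NSC, where 35.6%, 39.6% and 32.2% of all genes were lower and 48.0%, 43.5% and 48.1% higher.

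**Figure D5:**
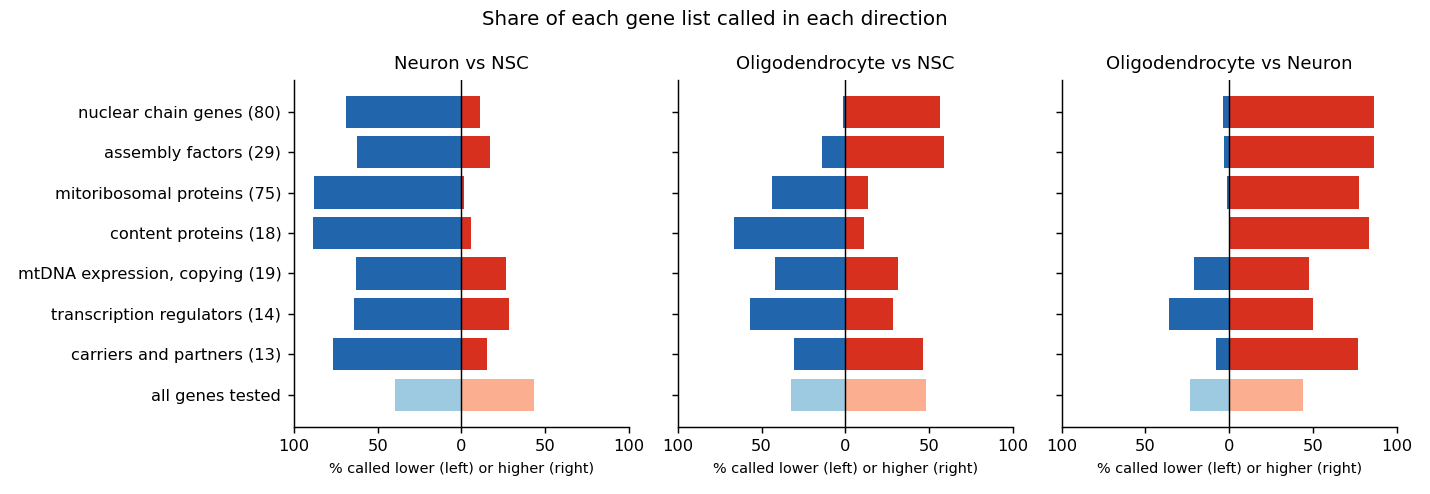
Share of each gene list (number tested in brackets) called higher (right, red) or lower (left, blue) in 3 comparisons, in percent; the pale bars are all genes tested. In Oligodendrocyte against NSC the nuclear chain genes lie mostly to the right (45 of 80 higher, 1 lower) and the content proteins mostly to the left (12 of 18 lower, 2 higher).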

How the data were processed

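Gene expression was measured in 11 poly(A)-selected, stranded RNA libraries (TruSeq, HiSeq, per the labels' protocols). The authors deposited CPM values (counts scaled to a common library total), 1 column per library, per the file headers; the values have 2 decimals. The submitters' processing notes name build NCBIM37 and bcl2fastq 1.8.4, TopHat2 2.0.8, HTSeq 0.6.1, edgeR 3.2.4 and R 3.0.0, with no role or order. Strand setting and annotation release: not given in the sources used here. Listed genes summed to 74.95% to 80.25% of each library's CPM total. This share differed by group: 74.95% to 76.94% in NSC, 76.11% to 78.01% in Neuron, 79.72% to 80.01% in Astrocyte and 80.07% to 80.25% in Oligodendrocyte. Its part in the differences between groups was not tested.

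From the deposited CPM, log2(CPM + 1) was computed and the 13342 genes reaching 1 CPM in 2 or more libraries were tested with limma 3.58.1 (R 4.3.3): 1 mean per group over all 11 libraries, moderated two-sided tests (residual df 7, prior df 5.96) whose prior variance followed mean expression, with Benjamini-Hochberg adjustment over all genes within each of 6 comparisons and a threshold of 0.05. Errors after ± are SE for log2 differences and SD for levels and ratios. The script was tested on simulated data. Sequence shares used GENCODE vM21 and RefSeq (GRCm38.p6), and exon lengths used GENCODE vM21. Sums and ratios carry no test.

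Members and gene lists were chosen with earlier results of these data known. Genes named are the mitochondrial members, the core subunits of complex I, complex II, isoform pairs, the extremes of each complex and comparison, at most 3 per other list and comparison, and 7 regulators and partners; others were chosen after their values were seen. Nothing says that replicates came from separate cultures, so p-values measure the spread between these libraries, which may be technical. Alternatives tried were other pseudocounts, filters and scalings, a replicate block, fits of both groups alone or without the trend, and fits without single libraries.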

Additional observations from a re-analysis of the deposited data

Results flagged for a closer look

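In 2 genes the change against NSC went in opposite directions in 2 media, each passing the test by at least 0.5 on the log2 scale, with the direct comparison of the media also passing it. Atp5g1 was lower in Neuron (-1.10) and higher in Oligodendrocyte (0.58), a difference of 1.68 on the log2 scale. Cox6b2 was lower in Neuron (-0.89) and higher in Oligodendrocyte (1.70), a difference of 2.59. The difference was tested by the direct comparison of both media (limma adjusted p = 1.03e-09 and 3.85e-10). No group held enough libraries for a test of single libraries that stand apart.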

How the results depend on the processing

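Counts of members called stayed within 1.5 times the reported ones in 115 of 126 fits with another pseudocount, filter, scaling, block, set of libraries or trend. The other 11 were these. Without a filter on low values the mitochondrial counts were 5 (Astrocyte against NSC), 4 (Neuron against NSC), 4 (Oligodendrocyte against NSC), 1 (Astrocyte against Neuron), 3 (Oligodendrocyte against Neuron) and 0 (Oligodendrocyte against Astrocyte, with limma; 1 in the reported fit). Under quantile normalization they were 1 for Astrocyte against Neuron and 2 for Oligodendrocyte against Astrocyte, and the nuclear count for Oligodendrocyte against Astrocyte was 31. The mitochondrial count for Oligodendrocyte against Astrocyte was 3 with only both groups fitted and 2 with scaling to genes outside the mitochondrial genome. Without the 3 libraries in which members were highest, chosen after seeing the data, that count was 3 and the nuclear one 73. Quantile normalization turned the Neuron against NSC split of mitochondrial genes to 3 higher and 3 lower, that of Astrocyte against NSC to 2 and 4 and that of Oligodendrocyte against NSC to 3 and 3, and median-ratio scaling turned the last to 3 and 4. The cause was not tested.

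With 1 library left out at a time the nuclear counts ranged from 37 to 49 (Astrocyte against NSC), 56 to 72 (Neuron against NSC), 39 to 56 (Oligodendrocyte against NSC), 51 to 71 (Astrocyte against Neuron), 68 to 75 (Oligodendrocyte against Neuron) and 23 to 62 (Oligodendrocyte against Astrocyte). The mitochondrial ones ranged in the same order from 7 to 8, 6 to 8, 5 to 8, 2 to 5, 2 to 6 and 0 to 4.

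Signs turned under quantile normalization for mt-Nd2 (-0.28) and mt-Co2 (-0.32) in Astrocyte against NSC, mt-Cytb (-0.06) and mt-Co2 (-0.08) in Neuron against NSC, Cox6b2 in Astrocyte against NSC (-0.0029) and Atp5b in Oligodendrocyte against NSC (-0.19); without the 3 libraries, Ndufa6 in Oligodendrocyte against Neuron was at 0.16.

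The log2 ratio of mitochondrial to nuclear sums was 2.23 in NSC, 3.05 in Astrocyte, 3.48 in Neuron and 2.52 in Oligodendrocyte. As a difference of median log2(CPM + 1) it was 5.41, 5.95, 5.96 and 5.56, so that Astrocyte and Neuron came together, and without the most abundant gene of each side 1.93, 2.58, 2.85 and 2.11. With 1 library left out it ranged from 2.21 to 2.28, 3.00 to 3.09, 3.45 to 3.51 and 2.46 to 2.58.

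Deviations from the group mean gave r of -0.505 to 0.415 over 15 pairs of libraries with the same replicate number (6 over 0.1). Over 30 pairs with different numbers r was -0.536 to 0.541 (7 over 0.1). In groups of 2 or 3 libraries the deviations depend on each other, so these values cannot decide whether the number marks a pairing. A fit with the number as a replicate block gave nuclear counts of 42, 64, 47, 62, 72 and 49 and mitochondrial counts of 8, 8, 7, 2, 6 and 1 for the 6 comparisons in the order above.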
